A study of Danio rerio with 4 samples.

Results

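Claudins and occludin are membrane proteins of the tight junction, the apical seal between neighbouring epithelial cells. The 7 genes described here are cldn7b, cldnb, cldnc, cldn15a, cldn19, oclnb and cldn29, which the files write as zgc:112437 under the identifier ENSDARG00000009215. They were taken by name or identifier from 3020 distinct genes in the tables, all 7 of them in replicate 1 and 6 in replicate 2. The claudin gene cldnd was left out because it is also an oocyte gene. RNA sequencing compared centroacinar cells (CAC) with non-centroacinar cells (non-CAC), both sorted by flow cytometry after the pancreas of adult AB zebrafish had been dissociated. There were 4 libraries, 1 CAC and 1 non-CAC library in each of 2 replicates, and the labels name no treatment. The marker or transgene used for the sort, the number of fish pooled and the fish's age are not given in the sources used here. The labels do not say that the replicates came from separate fish, so the spread between them may be technical.

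In an epithelial duct, claudins of adjacent cells bind each other across the intercellular space. Some seal that space, and others form pores that let selected ions pass between the cells. Occludin belongs to a separate family, the MARVEL proteins, and lies in the same strands. Centroacinar cells sit where the terminal duct meets the acinus, so they face a lumen that receives digestive enzymes and a bicarbonate-rich fluid.

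The authors deposited, for each replicate, a list of genes called different with a ratio between its CAC and non-CAC libraries, and no level per library. The headers do not name the numerator. A gene is therefore described as lying below 1 (log2 ratio under 0) or above 1 (log2 ratio over 0), and neither side is assigned to a population. Each ratio is given as the authors' posterior fold, on a log2 scale unless stated, beside their uncorrected fold where the columns differ. Depth per library is unknown, and an unlisted gene may have been similar, low or unmeasured. In these bulk libraries fewer cells of a type and less RNA per cell cannot be told apart.

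Markers give the members' sides a reference within each table. Of 19 ductal and centroacinar symbols, 16 were listed in each of the authors' deposited tables, and all 16 lay below 1 in each, cftr at -8.74 and -4.86 among them. Of all listed genes, 33.4% lay below 1 in replicate 1 and 57.1% in replicate 2, and 66.6% and 42.9% lay above 1. Of 19 acinar symbols, 1 was listed in replicate 1 and 15 in replicate 2, all above 1. Of 13 leukocyte symbols, 6 and 4 were listed, also above 1. For 4 of the 6 in replicate 1, the posterior and uncorrected folds differed by over 10 times. Leukocyte genes outside that list lay on the other side too, such as the B cell genes btk and blnk, named after their values were seen, at -5.97 and -2.00 and at -5.62 and -1.84 in the authors' deposited tables. Of 11 oocyte symbols, 6 were listed in replicate 2, cldnd among them, all below 1, the side of most claudins, and 1, zp2.5, was listed in replicate 1, above 1. The egg coat genes zp2.2 and zp3a.2, outside that list and named after their values were seen, likewise lay above 1 in replicate 1 (6.57 and 6.85) and below 1 in replicate 2 (-5.24 and -5.57) in the authors' deposited tables. Of 10 mesenchymal symbols, none was listed in replicate 1 and 2 were listed above 1 in replicate 2. Contractile and stromal genes outside that list, named after their values were seen, lay on both sides in the authors' deposited tables. Among them mylka (-7.36 and -3.23) and cd248a (-4.20 and -2.25) lay below 1, and cd248b (6.40 and 3.40) lay above 1. Of 11 endocrine islet symbols, only ins was listed, above 1 at 1.71 in the authors' deposited table of replicate 2. Outside that list, the endocrine lineage gene nkx2.2a (-6.42 and -2.89) and the mnx-family gene hlxb9la (-6.78 and -5.07) lay below 1 in the authors' deposited tables. Both were named after their values were seen. Of 10 endothelial symbols, only flt1 (above 1) and cdh5 (below 1) were listed, both in replicate 1. The part of other cell types in the claudin ratios was not tested.

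Claudin genes lay mostly below 1. In replicate 1, 6 of the 7 members lay below 1, where 33.4% of all listed genes did, and oclnb lay above 1 with 66.6% of listed genes. In replicate 2, 5 of 6 lay below 1, where 57.1% of listed genes did, and cldn19 lay above 1 with 42.9% of listed genes. The same 5 claudin genes, cldn29, cldn7b, cldn15a, cldnb and cldnc, lay below 1 in both tables, as did 216 of the 352 genes that both tables list (61.4%). Median log2 ratios of the 5 were -6.27 in replicate 1 and -3.42 in replicate 2 in the authors' deposited tables, against -5.59 and -2.83 over the 216 genes. All members had been called by the authors, whose lists hold only genes with a posterior probability of difference of 0.99 or more, so these counts describe the listed genes and are not a test.

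**Figure D1:**
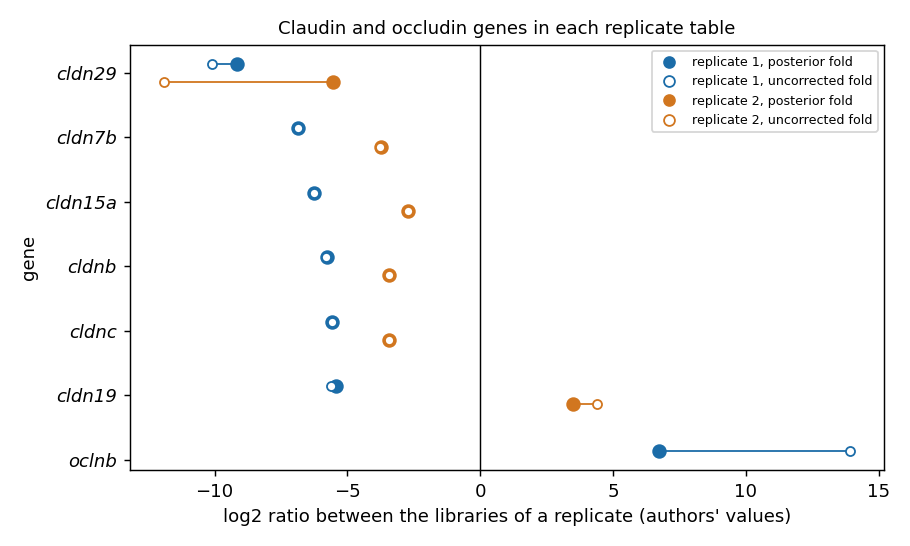
Log2 ratio (horizontal axis) of each of the 7 genes (rows) in the authors' deposited tables, replicate 1 in blue and replicate 2 in orange, with filled circles for the posterior fold and open circles for the uncorrected fold. The upper 5 genes lie left of 0 in both replicates, cldn19 crosses 0 between them, and oclnb has a value in replicate 1 only; the 2 fold columns part most for cldn29 in replicate 2 and for oclnb.

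The member farthest below 1 in both replicates was cldn29 (Zv9 chromosome 21, 25153595 to 25154663). Its ratio in the authors' deposited tables was 0.00175 in replicate 1 and 0.0214 in replicate 2, log2 values of -9.15 and -5.54. It was the lowest of the members in each table, and it ranked 7th of 606 genes below 1 in replicate 1 and 75th of 890 in replicate 2. The uncorrected fold in the authors' deposited tables put it at -10.10 in replicate 1 and -11.91 in replicate 2. In replicate 2 the fold columns thus differed by a factor of 82.6, against 1.93 in replicate 1, and the order of the replicates depends on which column is read. The side does not, since all 4 values lie well below 1. The authors' posterior probability of equal expression was 2.17e-09 and 1.05e-06 in their deposited tables.

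Second in each table was cldn7b (chromosome 10, 22344977 to 22350629), whose mammalian counterpart claudin-7 lies along the lateral membrane and binds the adhesion protein EpCAM. The authors' deposited tables gave it a ratio of 0.00863 in replicate 1 and 0.0742 in replicate 2, or -6.86 and -3.75 on the log2 scale. It ranked 74th of 606 and 242nd of 890 genes below 1. Its posterior probability of equal expression in replicate 2, 5.33e-15 in the authors' deposited table, was the lowest of any member in either replicate. The fold columns differed by a factor of only 1.00 and 1.01. In the RefSeq annotation of another zebrafish assembly, GRCz12tu, cldn7b overlaps the neuroligin gene nlgn2b. The sources do not say that counting used strand, so reads of the overlapping genes may not be separable, and nlgn2b itself was listed in neither table.

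The gene cldn15a (chromosome 7, 21968689 to 21974760) is related to mammalian claudin-15, which forms pores for cations in the gut. In replicate 1 it followed cldn7b, with a ratio of 0.0130 and a log2 value of -6.27 in the authors' deposited table. In replicate 2 it was the member nearest to 1 on the low side, with a ratio of 0.151 and a log2 value of -2.73 in the deposited table. Its rank moved accordingly from 130th of 606 to 464th of 890, about the middle of the genes below 1. In log2 terms its ratio was 2.30 times as far from 0 in replicate 1 as in replicate 2, while for the other 4 genes this factor ran from 1.63 to 1.83.

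The remaining members below 1 in both tables were cldnb, a gene expressed in zebrafish surface epithelia and the lateral line primordium, and cldnc, which the RefSeq table names cldn3d after claudin-3. In replicate 1 the authors' deposited table gave cldnb a ratio of 0.0181 (-5.78 in log2) and cldnc 0.0212 (-5.56). Replicate 2 had ratios of 0.0934 and 0.0935, both -3.42 in log2, in the authors' deposited table. They ranked 308th and 309th of 890 there, and 190th and 209th of 606 in replicate 1. Their log2 ratios differed by 0.22 in replicate 1 and by 0.00019 in replicate 2. Between replicates cldnb differed by 2.36 and cldnc by 2.14, a gap that does not measure differences between genes.

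Among these 5 genes the order was largely the same in both tables. Of the 10 pairs, 8 kept their order, and the 2 that switched were cldn15a against cldnb and against cldnc. Averaged over the replicates, log2 ratios were -7.35 ± 2.55 for cldn29, -5.30 ± 2.19 for cldn7b, -4.60 ± 1.67 for cldnb, -4.50 ± 2.502 for cldn15a and -4.49 ± 1.51 for cldnc (SD, n = 2, from the authors' deposited tables). By the posterior fold, the log2 ratio of cldn29 minus that of cldn7b was -2.30 in replicate 1 and -1.79 in replicate 2. This was the widest step between neighbours in either order. By the means, cldn7b, cldnb, cldn15a and cldnc lie within 1 SD of each other. That SD holds the gap between replicates, which went the same way for all 5, and does not measure differences between genes. Paired within replicates 1 and 2, cldn7b minus cldn15a was -0.59 and -1.03, minus cldnb -1.07 and -0.33, and minus cldnc -1.30 and -0.33. All 5 were farther from 1 in replicate 1, which the listed ranges nearly fix, since no gene below 1 had a ratio above 0.0571 in replicate 1 or above 0.325 in replicate 2 in the authors' deposited tables.

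**Figure D2:**
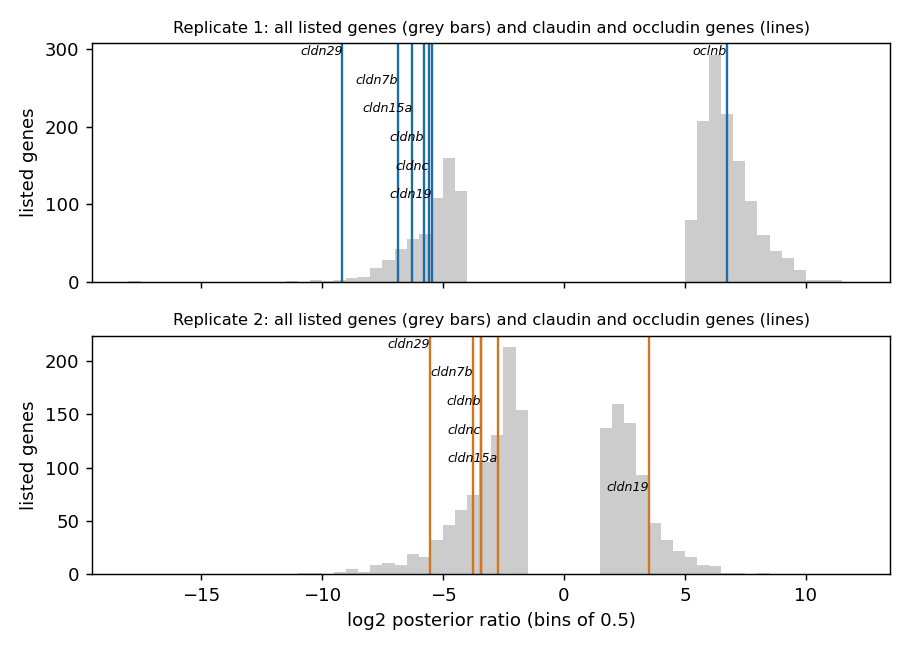
Number of listed genes (vertical axis) by log2 posterior ratio in bins of 0.5 (horizontal axis) in the authors' deposited table of replicate 1 (top) and replicate 2 (bottom), with a line at each claudin or occludin gene. The gap around 0 is empty because only called genes are listed; cldn29 lies in the left tail in both panels, while cldn15a moves from the tail side of the left peak at -6.27 to near its middle at -2.73.

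The claudin gene cldn19 (chromosome 11, 40247432 to 40278242) lay on opposite sides in the replicates. Its mammalian counterpart claudin-19 is a tight junction protein of the kidney tubule, the retina and Schwann cells. The authors' deposited tables gave it a ratio of 0.0230 in replicate 1 and 11.4 in replicate 2, or -5.44 and 3.51 on the log2 scale. Only 2 of the 352 genes in both tables lay below 1 in replicate 1 and above 1 in replicate 2 (0.568%), the other being si:dkey-235d18.6. Another 19 were reversed the other way. The call in replicate 2 was the weakest of any member, with a posterior probability of equal expression of 0.00606 in the authors' deposited table, against 0.000186 in replicate 1. The uncorrected fold put cldn19 on the same sides, at -5.63 and 4.39 in the authors' deposited tables. In replicate 2 its fold columns differed by a factor of 1.84, and 2 other genes in that table had exactly the same pair of folds. No direction can be given for cldn19, and its mean of -0.96 ± 6.33 (SD, n = 2) describes neither replicate.

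**Figure D3:**
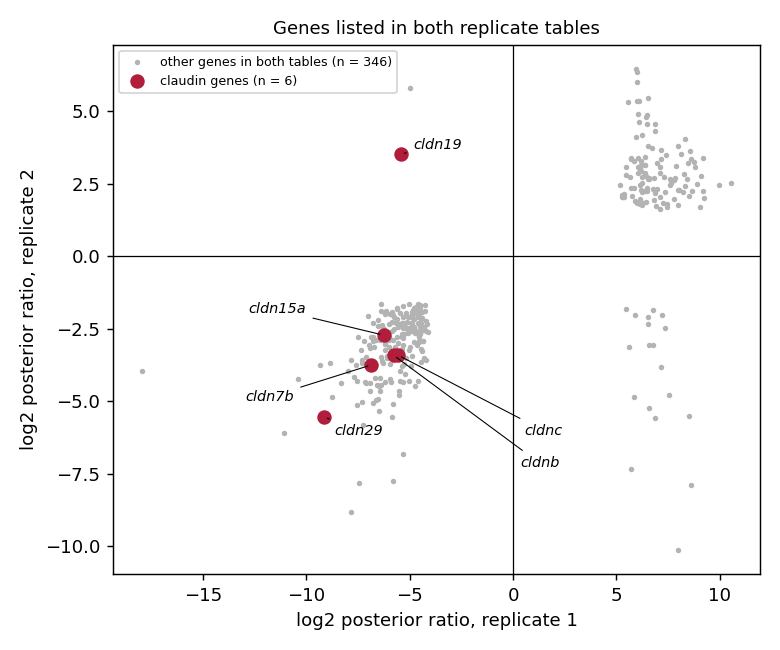
Log2 posterior ratio in replicate 1 (horizontal axis) against replicate 2 (vertical axis) for the 352 genes in both of the authors' deposited tables, claudin genes as large red points and the others in grey. The 5 claudin genes below 1 in both lie inside the lower left cloud, cldn29 at its outer edge, and cldn19 is 1 of only 2 genes in the upper left quadrant.

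Occludin was represented by oclnb alone (chromosome 5, 27857169 to 27865420), and in replicate 1 alone. It lay above 1, with a ratio of 107.4 by the posterior fold and 15373 by the uncorrected fold in the authors' deposited table, log2 values of 6.75 and 13.91. The columns differed by a factor of 143.1, so the size of this ratio depends on the column read. Such gaps of over 10 times were found for 767 of the 1206 genes above 1 in replicate 1 (63.6%), and for 52 of the 606 below 1 (8.58%). Exactly the same pair of folds was listed for 2 other genes in that table. Its posterior probability of equal expression was 0.00173 in the authors' deposited table, the highest of any member in replicate 1. The fold columns agreed within 2% for 4 of the 6 members below 1 in replicate 1 and for 4 of 5 in replicate 2. Over all listed genes below 1 they did so for 44.7% and 31.6%, and the difference was not tested on so few members. The exceptions were cldn29 in both replicates (factors of 1.93 and 82.6) and cldn19 in replicate 1 (1.14).

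The nearest listed neighbour of oclnb was marveld2b, 773 bp away on chromosome 5 and also the adjacent coding gene in GRCz12tu. It encodes tricellulin, a MARVEL protein like occludin that seals the corners where several cells meet. Only the authors' deposited table of replicate 2 held it, below 1 at -1.85, so oclnb and its neighbour were never listed together and their sides come from different pairs of libraries. Also within 50 kb, 42.3 kb from oclnb, was si:dkey-104k17.1, above 1 at 3.32 in the deposited table of replicate 2.

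Of the 5 genes below 1 in both tables, 3 were neighbours. The loci of cldnc (25134336 to 25136177), cldnb (25145794 to 25146897) and cldn29 on Zv9 chromosome 21 are separated by gaps of 9.62 kb and 6.70 kb. A gap of 2.82 kb separates cldn29 from cldnd (25157479 to 25158258), so that the 4 listed genes fill 23.9 kb. In GRCz12tu they belong to an unbroken run of 7 coding claudin genes, in which cldn3c precedes cldnc and cldn28 and cldn30 follow cldnd. None of cldn3c, cldn28 and cldn30 was found in either table under its RefSeq symbol or synonyms. In the authors' deposited tables, cldnb and cldnc had nearly equal ratios and cldn29 lay lower than both. Its log2 ratio minus that of cldnb was -3.37 and -2.12 in replicates 1 and 2, and minus that of cldnc it was -3.59 and -2.12, from the authors' deposited tables. The authors' deposited table of replicate 2 also held the oocyte gene cldnd, at -4.85, between cldn29 and cldnb. Claudins of one block are related in sequence and reads may be shared among them, which the tables do not show. Outside the block, cldn7b, cldn15a and cldn19 had no listed gene within 50 kb among genes with a readable locus.

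**Figure D4:**
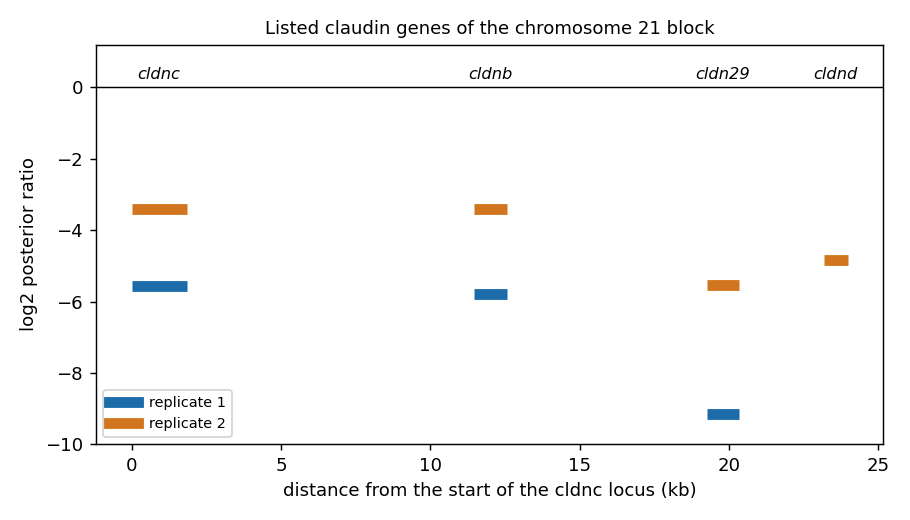
Log2 posterior ratio (vertical axis) of the listed claudin genes on chromosome 21 against distance in kb from the start of cldnc (horizontal axis), with bars as long as each locus, replicate 1 in blue and replicate 2 in orange, from the authors' deposited tables. The bars of cldnc and cldnb are level with each other in each replicate, cldn29 lies below both, and cldnd has a bar at -4.85 in replicate 2 only.

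With each replicate as a block, limma tested the mean within-replicate log2 ratio of the 352 shared genes against 0, with Benjamini-Hochberg adjustment over all of them. It called 4 genes below 1 at an adjusted p of 0.05 (1.14%), and none of the 6 claudin genes tested. The adjusted p from limma was 0.0535 for cldn29, 0.0696 for cldn7b, 0.0816 for cldnb, 0.0835 for cldn15a, 0.0835 for cldnc and 0.671 for cldn19. At an unadjusted p of 0.05, limma passed 5 of the 6 on the low side, against 104 of 352 genes (29.5%). The standard error was 2.19 for every gene, because limma pooled the spread fully, and the gap between the replicates' scales enters that spread. Passing therefore depends only on the size of the mean log2 ratio and adds nothing to the ratios given above. The 352 genes also include 115 that lay above 1 in both replicates and could not pass on the low side. Genes reached this test by having large ratios in both tables, and its p-values carry that selection.

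Other junction genes lay mostly on the same side as these claudins. Of 143 symbols in 4 lists (other tight junction genes, apical polarity, adherens junctions and desmosomes, and epithelial regulators), 17 genes were listed in at least 1 table. In replicate 1, 8 were listed and all 8 lay below 1 (33.4% over all listed genes), and in replicate 2, 14 of 15 did (57.1%). All 6 genes listed in both tables lay below 1 in both (61.4% over all shared genes). Most symbols of these lists, among them the scaffold genes tjp1a and tjp1b and the second occludin gene oclna, were in neither table, and the lists were drawn up with earlier results of these data known. The lists are not complete. Junction-related genes outside them, named after their values were seen, include magi1 (-5.36 and -2.30) and PVRL4 (-6.56 and -4.43) in the authors' deposited tables. Another, lmo7b, lay on opposite sides there, at 5.61 in replicate 1 and -3.12 in replicate 2. Of the gap junction genes, cx30.3 lay below 1 in both of the authors' deposited tables (-6.94 and -4.38) and cx32.2 above 1 in both (6.38 and 2.24).

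Of 67 other tight junction symbols, 3 were listed in replicate 1 and 5 in replicate 2, all below 1. Only igsf5b, a gene of the junctional adhesion molecule family, was in both of the authors' deposited tables, at -6.28 and -3.69, close to cldn15a in replicate 1 and to cldn7b in replicate 2. The junctional adhesion molecule genes f11r.2 and f11r.1 were listed in 1 replicate each, at -4.61 in replicate 1 and -1.75 in replicate 2 in the authors' deposited tables. The claudin genes cldng, in replicate 2 alone, and cldnk, in replicate 1 alone, were at -3.03 and -4.38 in the authors' deposited tables. In zebrafish cldnk is known from myelinating glia. Genes of tricellular contacts were listed in replicate 2 alone, ildr1b, an angulin gene, at -1.71 and marveld2b at -1.85 in the authors' deposited table.

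Of 31 polarity symbols, pard6a, a subunit of the PAR complex that positions the apical domain, was in both of the authors' deposited tables, at -4.85 and -2.13. The authors' deposited table of replicate 2 placed pard3, which encodes the scaffold of that complex, at -1.72. The exception above 1 was lin7a, of the Crumbs-associated scaffold, at 3.39 in the deposited table of replicate 2.

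Of 27 adherens junction and desmosome symbols, 2 were in both of the authors' deposited tables: epcam, the adhesion gene whose mammalian protein binds claudin-7 and which is also on the ductal list, at -6.00 and -2.89, and the nectin gene pvrl1b at -5.75 and -2.51. The E-cadherin gene cdh1 (-2.17), the desmocollin gene dsc2l (-2.04) and the desmosomal gene perp (-2.04) were in the authors' deposited table of replicate 2 alone. Of 18 epithelial regulator symbols, elf3, an epithelial ETS factor gene, and spint2, which encodes a membrane inhibitor of serine proteases, were in both. In the authors' deposited tables elf3 was at -4.97 and -3.12 and spint2 at -5.09 and -2.47. In replicate 1, every one of the 8 listed genes except igsf5b, epcam and pvrl1b lay nearer to 1 than all 6 claudin genes below 1.

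**Figure D5:**
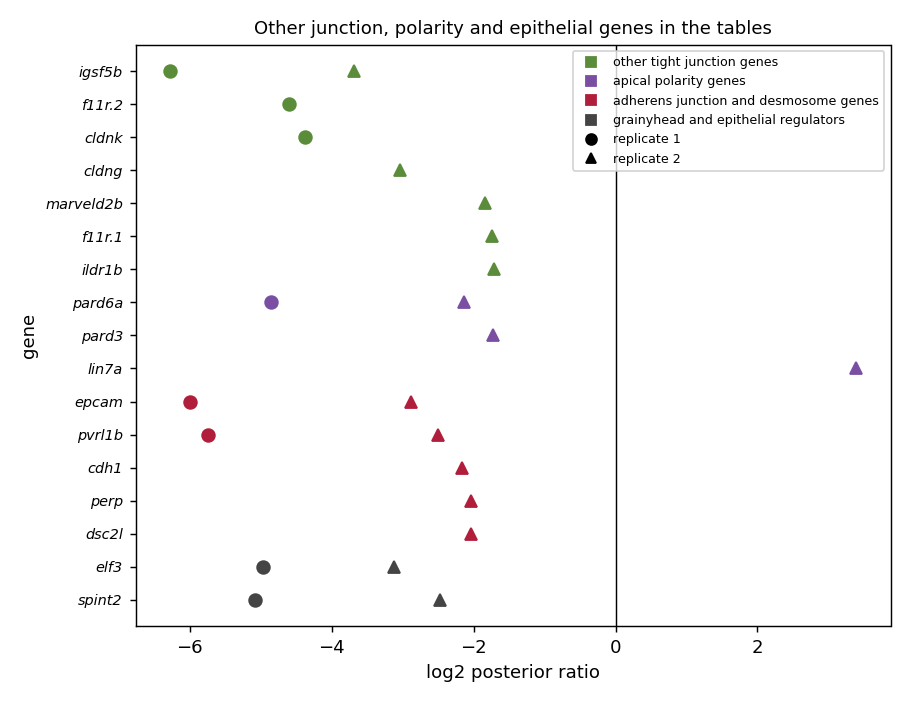
Log2 posterior ratio (horizontal axis) of the 17 other junction, polarity and epithelial genes (rows) in the authors' deposited tables, coloured by list, with circles for replicate 1 and triangles for replicate 2. All points but lin7a in replicate 2 lie left of 0, and the 6 genes with both symbols lie farther from 0 in replicate 1.

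The genes most like the claudins in these tables were found by the distance between their 2 log2 ratios, 1 per replicate, and the medians of the 5 claudin genes below 1 in both. Only genes with a symbol were ranked, leaving out names that hold a colon or a clone accession. The nearest 5 were b3gnt2l, a glycosyltransferase gene that the files name B3GNT8 (distance 0.15), the receptor phosphatase gene ptprjb (0.15), fscn1, which encodes the actin-bundling protein fascin (0.19), the endoderm transcription factor gene foxa2 (0.21) and igsf5b (0.27). In the authors' deposited tables foxa2 was at -6.34 and -3.62 and fscn1 at -6.10 and -3.51. The unranked gene si:dkey-240h12.4, at -6.19 and -3.23 in the authors' deposited tables, lay nearer than foxa2 and igsf5b. This likeness rests on 2 values per gene.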

How the data were processed

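The submitters' processing notes name RSEM, Zv9 and danRer7, with no version or role. Which model gave the posterior values is not stated in the labels or headers. Each deposited row, per the file headers, holds a gene identifier, name and locus, posterior probabilities of equal and differential expression (scores between 0 and 1), and a posterior and an uncorrected fold, both linear ratios. Each table compares 1 CAC with 1 non-CAC library, so libraries of one number are paired, and no p-value was computed within a table. Log2 ratios, ranks, gaps between loci (Zv9, from the processing notes) and list counts were computed with Python 3.11.15 and pandas 2.3.3. Limma 3.58.1 in R 4.3.3 was fitted to the within-replicate log2 ratios of genes in both tables, and was checked on simulated data. List symbols were matched exactly to the file's name or, through the identifier, to a table of Ensembl names, which held 6 of the 7 members (2048 of 3020 identifiers). Order and overlap of neighbouring genes in GRCz12tu came from the coordinates of a RefSeq gene table, from which no distance was taken.

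The members and lists were chosen with earlier results of these data known. The text names all members, every listed gene of the 4 junction and epithelial lists, and the 5 genes with a symbol most like the members. It also names listed neighbours within 50 kb, marker genes that show the sides, and some genes picked after their values were seen. Alternatives were a 4-fold threshold, a posterior probability of equal expression under 0.001, the uncorrected fold, centring on table medians, removal of genes whose fold columns differ by over 10 times, and each replicate alone.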

Additional observations from a re-analysis of the deposited data

How the results depend on the processing

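The count of 5 claudin genes below 1 in both tables was 5 at a 4-fold threshold, at a posterior probability of equal expression under 0.001 in both tables and with the uncorrected fold. The count itself required at least 2-fold, which every listed gene met. In replicate 1 the 4-fold threshold could remove no gene either, as no listed gene below 1 had a ratio above 0.0571. It could act only in replicate 2, where ratios below 1 reached 0.325. The count was 4 without genes whose fold columns differ by over 10 times (cldn29 left out). The count was also 4 after each table was centred on its median log2 ratio (6.02 in replicate 1 and -1.90 in replicate 2). There cldn15a, at -0.83 in replicate 2, was less than 2-fold from the centre. In replicate 1 that median lies among the genes above 1, so centring could remove no gene below 1 there. The lists hold only called genes, so neither median measures an offset between libraries. Single replicates gave counts of 5 to 6. With the replicate block, limma called 0 of the members after adjustment, against 4 of the 352 shared genes. At an unadjusted p of 0.05 it passed 5 members on the low side, against 104 of the 352. Limma also called 0 members with the uncorrected fold and with centred tables, where it called 0 of all 352 genes. In each of these fits 1 member passed an unadjusted p of 0.05 on the low side, against 20 and 8 of the 352. The adjusted p of cldn29 from limma was 0.106 and 0.396 there. The 1 member above 1 in replicate 1, oclnb, was not counted (0) under the stricter posterior probability, after centring, where it lay at 0.73, or without genes whose fold columns differ by over 10 times. The 1 member above 1 in replicate 2, cldn19, was not counted (0) under the stricter posterior probability. Centring moved the means of cldnb (-4.60) to -6.66 and of cldnc (-4.49) to -6.55, and the uncorrected fold moved that of cldn29 (-7.35) to -11.01, each by more than 1 SD. Centring shifts the mean of every shared gene by the same amount. The mean of cldn19 (-0.96) became 3.51 without replicate 1 and -5.44 without replicate 2. Tables with 1 library per group and no levels limit every ratio, since depth is unknown.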

Other observations

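Of the coding genes next to cldn7b, cldn15a, cldn19 and oclnb in GRCz12tu, those listed in a table were fgf11b, si:ch211-122l14.7 and marveld2b. The coding gene that follows cldn7b is fgf11b, which encodes an intracellular fibroblast growth factor homologue. These neighbours were looked up after the values were seen. The gene fgf11b lay above 1 in both of the authors' deposited tables, at log2 ratios of 6.16 and 1.97, while cldn7b lay below 1 in both, at -6.86 and -3.75. Its locus was not readable in the tables, so no distance on Zv9 was computed.
The coding gene that precedes cldn19, si:ch211-122l14.7, was listed in replicate 2 alone and above 1, at 3.12 by the authors' deposited table, the side of cldn19 (3.51) in that replicate. The neighbour of oclnb, marveld2b, is described with it.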
